A study of Mus musculus with 6 samples.

Results

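Midbrain dopamine neurons make dopamine, load it into vesicles, take it back up after release and break it down, and 8 genes of that cycle were chosen by name among the 23079 genes of the deposited table: Th, Ddc, Slc18a2, Slc10a4, Slc6a3, Drd2, Maoa and Maob. All 8 were found and all 8 passed the filter on low counts. The libraries hold RNA of dopaminergic neurons from the midbrain of C57BL/6 mice of the Dat bacTRAP line, a transgene that puts a tagged ribosomal protein into cells with an active dopamine transporter promoter. Every library came from tissue injected with adeno-associated virus of serotype 1, which carried EGFP with a scrambled hairpin in the 3 control libraries and EGFP with a hairpin against Satb1, a chromatin organiser, in the 3 knockdown libraries. The mice were 4 months old. The labels speak of 3 mice, do not tie a library to a mouse, and do not say whether a library holds substantia nigra, ventral tegmental area or both. They name total RNA and give no ribosome capture step, and the sample titles write siRNA for the hairpin. P-values therefore measure the spread between these libraries, which may be technical in part, and fewer dopamine neurons in a sample cannot be told apart from less RNA per neuron.

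Dopamine is made in 2 steps. Tyrosine hydroxylase (Th) turns tyrosine into L-DOPA, the rate-limiting step, and aromatic L-amino acid decarboxylase (Ddc) turns L-DOPA into dopamine. The vesicular monoamine transporter VMAT2 (Slc18a2) packs dopamine into synaptic vesicles, and Slc10a4 is an orphan carrier found on vesicles of monoamine and acetylcholine neurons. After release the dopamine transporter (Slc6a3) returns dopamine to the neuron, the D2 receptor (Drd2) acts there as an autoreceptor that restrains firing and release, and monoamine oxidases A and B (Maoa, Maob) oxidise cytosolic dopamine. In the brain Maob is also known from astrocytes and serotonergic neurons.

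Total counts lay between 147486754 and 170351145 per library, and members had between 2497 counts (Maob) and 713036 counts (Slc6a3) in a library, so counting error was small beside the spread between libraries. Levels are given as CPM, counts relative to the library total after scaling with the trimmed mean of M-values (TMM); 1 count was worth 0.00557 to 0.00672 CPM. Satb1 was at 320 to 351 CPM in the controls and at 82.9, 166 and 61.2 CPM in the knockdown, in the order of replicates 1 to 3 used throughout (log2 fold change -1.72 ± 0.26 SE; edgeR adjusted p = 0.00106). With total-count scaling in place of TMM, the median over the whole table moved from 0.01 to 0.18 on the log2 scale, and the changes given here move up by about as much.

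Promoters of some members are shown first. Th, Slc18a2 and Slc6a3 fell while Drd2 did not pass the test, and the 300 bases around their start sites are set side by side. Slc10a4, which also fell, was searched too, but its sequence is not printed. The windows run from 250 bases before an annotated start to 50 bases after it (build GRCm38.p6), and capitals mark letters of the motifs searched. For Slc6a3 and Drd2 that start lies downstream of the first base of the gene in RefSeq (chr13:73536128 and chr9:49340360). Their windows thus describe that start only. Th lies at chr7:142899946-142900245 on the minus strand, Slc18a2 at chr19:59260628-59260927, Slc6a3 at chr13:73536497-73536796 and Drd2 at chr9:49340153-49340452, all 3 on the plus strand.
Th: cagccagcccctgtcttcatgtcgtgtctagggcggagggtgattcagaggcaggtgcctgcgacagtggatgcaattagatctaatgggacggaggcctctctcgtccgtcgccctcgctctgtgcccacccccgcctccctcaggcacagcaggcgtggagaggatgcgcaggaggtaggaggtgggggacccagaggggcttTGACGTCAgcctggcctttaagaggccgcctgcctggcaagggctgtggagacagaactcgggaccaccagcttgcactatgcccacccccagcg
Slc18a2: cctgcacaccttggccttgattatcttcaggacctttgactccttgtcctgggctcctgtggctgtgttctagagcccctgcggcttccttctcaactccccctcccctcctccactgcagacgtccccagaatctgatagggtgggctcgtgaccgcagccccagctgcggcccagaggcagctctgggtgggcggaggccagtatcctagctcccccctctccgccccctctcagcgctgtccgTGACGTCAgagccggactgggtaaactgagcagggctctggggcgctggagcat
Slc6a3: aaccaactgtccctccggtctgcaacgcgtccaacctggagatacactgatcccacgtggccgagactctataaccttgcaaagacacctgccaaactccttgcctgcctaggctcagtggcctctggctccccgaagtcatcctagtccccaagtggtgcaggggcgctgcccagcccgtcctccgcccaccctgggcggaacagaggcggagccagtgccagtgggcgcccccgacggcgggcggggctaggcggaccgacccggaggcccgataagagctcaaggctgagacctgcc
Drd2: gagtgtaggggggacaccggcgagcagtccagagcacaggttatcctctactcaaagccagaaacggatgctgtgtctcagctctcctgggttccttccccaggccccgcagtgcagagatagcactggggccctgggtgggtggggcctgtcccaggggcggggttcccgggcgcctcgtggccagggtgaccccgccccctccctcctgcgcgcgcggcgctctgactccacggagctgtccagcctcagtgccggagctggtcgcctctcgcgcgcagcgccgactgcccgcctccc

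The palindrome TGACGTCA, the cAMP response element, was in 2 of the 8 windows that RefSeq gave for 7 members. It lay 45 to 38 bases before the start of Th, and it spanned the start of Slc18a2, from 4 bases before it to base 4 of the transcript. Of all 32851 mouse windows 1.79% hold these letters, among windows of genes tested here 2.76% do, and among windows of genes called lower 3.47% do. The NR4A element AAAGGTCA, searched on both strands and present in 1.51% of all windows, was found in 1 member window, on the opposite strand of the upstream Ddc start (chr11:11898095-11898394), 73 to 66 bases before it. There it overlapped the TATA box letters TATAAA, also on the opposite strand (in 13.6% of all windows). The bicoid-type homeodomain letters GGATTA were in none of the 8 windows and in 7.06% of all windows. Among windows of tested genes the shares were 1.12% for AAAGGTCA, 8.06% for TATAAA and 5.81% for GGATTA. The downstream Ddc start, like Slc6a3, Slc10a4, Drd2 and Maoa, had none of the 4 motifs in its window. Bases A and T made up 35.7% of the Th window, 36% of that of Slc18a2, 34% of that of Slc6a3 and 29.7% of that of Drd2, all below the median of 47.3%. Slc10a4 at 42.7%, Maoa at 42.3% and the downstream Ddc start at 45.7% were also below it. The upstream Ddc window, at 58.7%, was above it. None of the 4 motifs was thus in the windows of all 4 members that fell, which describes letters in these windows and no more.

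The transcripts of synthesis, packaging and reuptake were abundant in the controls, and those of the oxidases less so. By CPM Slc6a3 ranked 7, Th 13, Ddc 21, Slc18a2 94, Slc10a4 254, Drd2 740, Maoa 2122 and Maob 7518 of 16766 tested genes. Levels of different genes are comparable only per length, here CPM per kilobase of the longest GENCODE transcript that is matched to a curated RefSeq one (RPKM). On that scale Th was highest in the controls at 1918 ± 163 RPKM (SD, n = 3 here and for every mean below), followed by Ddc at 1409 ± 24.3 and Slc6a3 at 1299 ± 56.0. Slc18a2 at 287 ± 20.9 and Slc10a4 at 262 ± 12.9 overlapped between libraries, and Drd2 followed at 106 ± 9.07. The oxidases were lowest, Maoa at 27.2 ± 1.00 and Maob at 7.99 ± 1.55 RPKM. Neighbours in this order other than Slc18a2 and Slc10a4 did not overlap in any control library. Over the union of all annotated exons, which lengthens Ddc from 2.018 to 4.461 kb, Ddc came below Slc6a3 (637 against 1299 RPKM) and Slc18a2 below Slc10a4 (208 against 262 RPKM), so those places in the order depend on the transcript assumed. In the knockdown Th (1317 ± 156 RPKM) and Ddc (1229 ± 122 RPKM) overlapped, as did Slc18a2 and Slc10a4.

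Knockdown and control libraries were then compared, to see which transcripts of the dopamine cycle differ when Satb1 is reduced. Of the 8 members 4 fell, Th, Slc18a2, Slc10a4 and Slc6a3, none rose, and Ddc, Drd2, Maoa and Maob did not pass the test (edgeR quasi-likelihood test, Benjamini-Hochberg adjusted p under 0.05 over 16766 genes). At an unadjusted p under 0.05, 1 member, Maob, was higher, and DESeq2 and limma-voom also called 0 higher. Over all genes tested, 12.6% of the genes were called lower and 8.48% higher, 21.1% in all. The median log2 fold change was -0.37 over the members and 0.01 over all genes. Abundant genes fell more often than others, however. Of 740 genes with a control mean at or above that of Drd2, 43.1% were called lower, with a median of -0.24, against 4 of the 6 members in that range. That class was cut at the level of a member and on the control mean, which also enters the fold change, with TMM scaling only. It is thus a rough background that is not matched to each member, and no excess of the members over it was tested. In that set 5.95% of the genes had a lower log2 fold change than Slc10a4, 7.30% than Slc6a3, 10.7% than Slc18a2 and 14.2% than Th. For Ddc and Drd2 the shares were 56.4% and 74.5%.

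**Figure D1:**
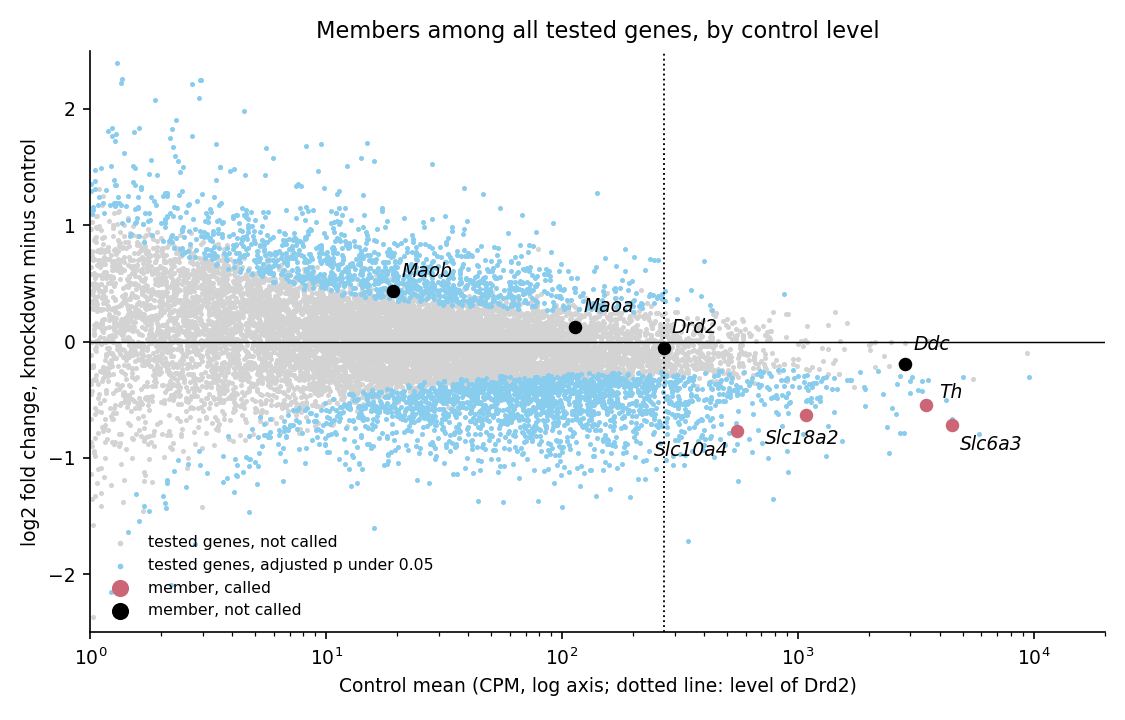
Log2 fold change (knockdown minus control) against the control mean in CPM on a log axis for tested genes at 1 CPM or more. Blue points are called genes, large points the 8 members (red called, black not called); 7 genes beyond 2.5 on the log2 axis are not drawn. To the right of the dotted line, the level of Drd2, 43.1% of the genes were called lower, and Ddc and Drd2 lie among the genes there that were not called.

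Of the enzymes of synthesis, Th fell and Ddc did not pass the test. Th (gene identifier 21823, chr7:142892779-142899995, minus strand) was at 3181, 3578 and 3763 CPM in the controls and at 2118, 2689 and 2422 CPM in the knockdown. All knockdown libraries lay below all controls. Th fell 1.46-fold, to 68.7% of the control mean, a log2 fold change of -0.54 ± 0.10 (SE; edgeR adjusted p = 0.00228).

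Ddc (13195, chr11:11814101-11898144), the next enzyme, varied little between controls, at 2806, 2823 and 2898 CPM, and was at 2205, 2560 and 2678 CPM in the knockdown. The groups did not overlap, but library 1 stood apart from the other knockdown libraries and the spread was larger than in the controls. The log2 fold change of -0.20 (95% interval -0.37 to -0.02 without adjustment) did not pass the test (edgeR adjusted p = 0.112). With total-count scaling it was -0.03. Among members 5 of 8 had knockdown libraries all below the controls, Ddc and the 4 that fell, where 20.8% of all tested genes did.

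Th and Ddc were compared directly within each library, since a ratio of a pair of genes does not depend on the scaling. In CPM, Ddc made up 88.2%, 78.9% and 77.0% of Th in the controls and 104%, 95.2% and 111% in the knockdown. The ratio was higher in every knockdown library than in any control, by 0.34 on the log2 scale or 1.27-fold, with a 2-sided exact permutation p = 0.1, the smallest that 3 against 3 libraries allow (0.225 adjusted over the 9 ratios computed).

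**Figure D2:**
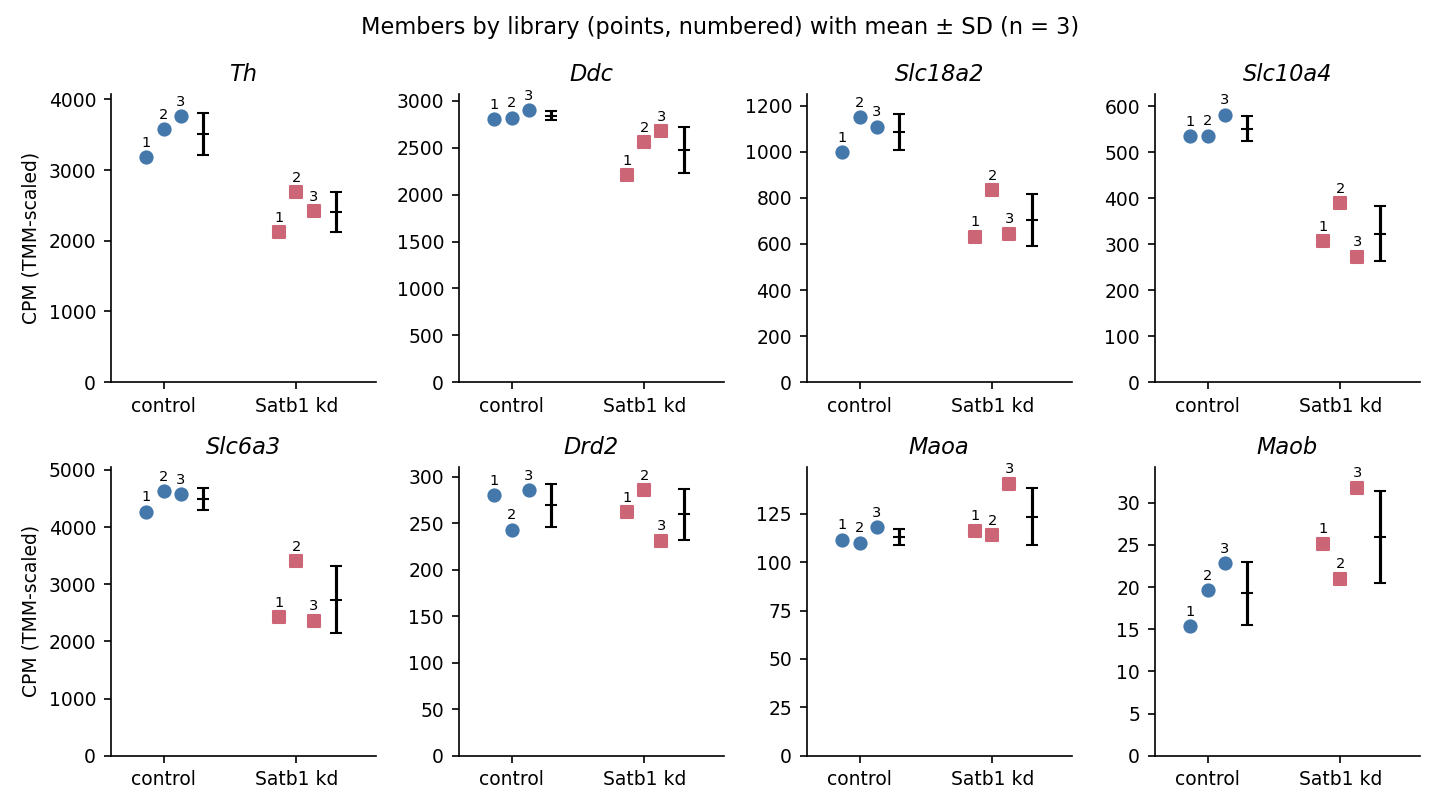
CPM of each member in the 3 control (circles) and 3 Satb1 knockdown libraries (squares), numbered by replicate, with mean ± SD beside them and axes from 0. Th, Slc18a2, Slc10a4, Slc6a3 and Ddc have all knockdown points below the controls, while the groups overlap for Drd2, Maoa and Maob.

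Both vesicle carriers fell. Slc18a2 (214084, chr19:59260878-59296012, plus strand) was at 997, 1150 and 1110 CPM in the controls and at 632, 834 and 644 CPM in the knockdown. It fell 1.54-fold (log2 fold change -0.63 ± 0.11 SE; edgeR adjusted p = 0.00219). An annotated antisense gene, Gm29261, shares 2.12% of its exon bases, which without strand cannot be separated. Slc10a4 (231290, chr5:73006904-73012955) was at 534, 536 and 582 CPM in the controls and at 307, 390 and 273 CPM in the knockdown. It had the largest decrease among the members, 1.70-fold, to 58.7% of the control mean (log2 fold change -0.77 ± 0.12 SE; edgeR adjusted p = 0.00105). In both genes knockdown library 2 was the highest of its group and still below every control.

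Slc6a3 (13162, chr13:73536128-73578672), the reuptake transporter and the most abundant member by CPM, was at 4268, 4629 and 4571 CPM in the controls and at 2424, 3406 and 2363 CPM in the knockdown. It fell 1.64-fold, to 60.8% of the control mean (log2 fold change -0.72 ± 0.12 SE; edgeR adjusted p = 0.00159). Library 2 again stood above the other knockdown libraries, and the coefficient of variation was 21.4% in the knockdown against 4.31% in the controls.

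The transporters and Th were also set against each other. Slc6a3 made up 134%, 129% and 121% of Th CPM in the controls and 114%, 127% and 97.6% in the knockdown, and the groups overlapped (exact permutation p = 0.2, adjusted p = 0.257). Slc18a2 made up 31.4%, 32.1% and 29.5% of Th in the controls and 29.8%, 31.0% and 26.6% in the knockdown, also with overlap (exact permutation p = 0.3, adjusted p = 0.3). The ratios of Slc18a2 to Slc6a3 and of Slc10a4 to Slc18a2 overlapped as well (exact permutation p = 0.2 and 0.3). Slc10a4 relative to Th was 16.8%, 14.97% and 15.5% in the controls and lower in every knockdown library, at 14.5%, 14.5% and 11.3% (exact permutation p = 0.1, adjusted p = 0.225). The exact test on 3 against 3 libraries cannot go below 0.1, so whether the decreases of Th, Slc18a2 and Slc6a3 differ in size is not settled by it.

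The autoreceptor did not pass the test. Drd2 (13489, chr9:49340360-49408177) was at 280, 243 and 285 CPM in the controls and at 262, 285 and 231 CPM in the knockdown. The groups overlapped, with knockdown library 3 below every control. Its log2 fold change was -0.05 (95% interval -0.28 to 0.17; edgeR adjusted p = 0.762), and 0.11 with total-count scaling, so its direction is not settled. The interval reaches from a level of 0.825 to 1.12 times the control and leaves room for a small change. Relative to Th, Drd2 was 8.80%, 6.79% and 7.58% in the controls and 12.4%, 10.6% and 9.54% in the knockdown, without overlap, a ratio 1.40-fold higher (exact permutation p = 0.1, adjusted p = 0.225).

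The oxidases did not pass the test and had values above the control mean. Maoa (17161, chrX:16619698-16687812) was at 112, 110 and 118 CPM in the controls and at 116, 114 and 141 CPM in the knockdown, and only library 3 exceeded every control. Its log2 fold change was 0.13 (95% interval -0.10 to 0.35; edgeR adjusted p = 0.429). Maob (109731, chrX:16709281-16817366) lies 21.5 kb from Maoa, on the opposite strand and tail to tail with it, and no exon of either overlaps another annotated gene. Maob was at 15.4, 19.6 and 22.8 CPM in the controls and at 25.1, 21.0 and 31.8 CPM in the knockdown. Library 2 fell inside the control range. The log2 fold change of Maob was 0.43 (95% interval 0.06 to 0.80 without adjustment), and its adjusted p of 0.0959 (edgeR) missed the threshold. With total-count scaling it passed, at 0.60, and it also passed without knockdown library 2, at 0.56.

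Relative to Th, Maoa was 3.51%, 3.07% and 3.13% in the controls and 5.49%, 4.23% and 5.80% in the knockdown, 1.59-fold higher and without overlap (exact permutation p = 0.1, adjusted p = 0.225). The ratio of Maob to Maoa overlapped between the groups (exact permutation p = 0.2). Within a library, transcripts of the degrading enzyme Maoa, of Ddc and of Drd2 took a larger part relative to Th in each knockdown library. Th, the shared denominator, fell, and Maoa, Ddc and Drd2 did not pass the test. These ratios thus all contain the decrease of Th and do not show a separate change of those genes. The part of each gene in its ratio was not tested.

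**Figure D3:**
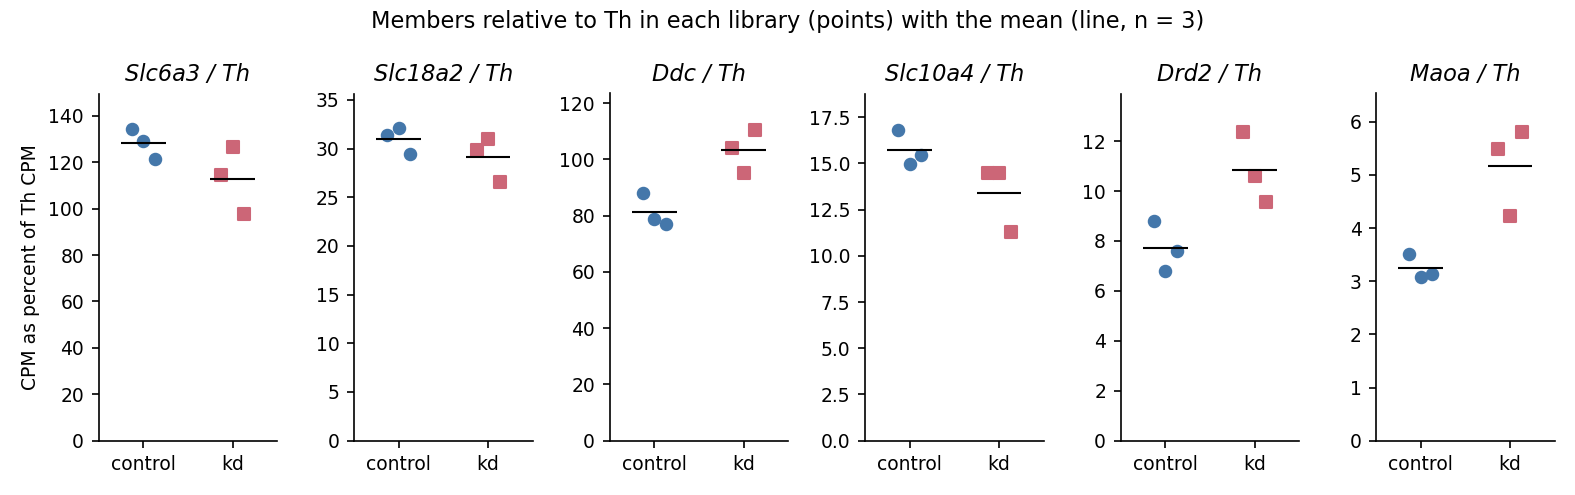
CPM of 6 members as a percent of Th CPM in the same library, with the group mean as a line (n = 3) and axes from 0. Ddc, Drd2 and Maoa lie higher in all knockdown libraries and Slc10a4 lower, while Slc6a3 and Slc18a2 overlap with the controls.

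**Figure D4:**
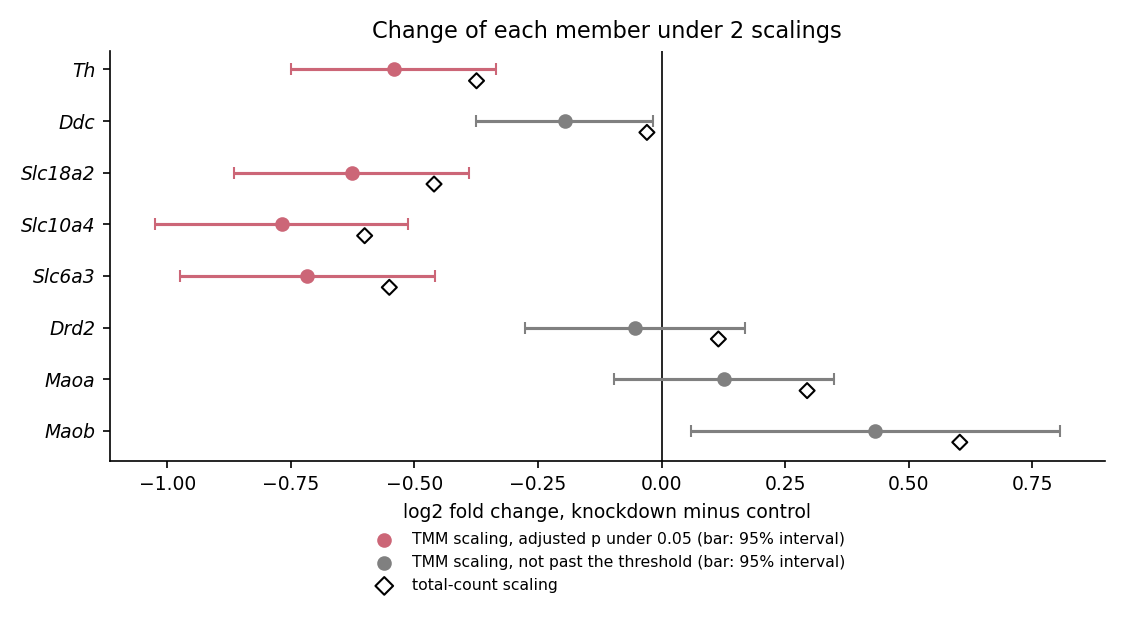
Log2 fold change of each member (knockdown minus control) with TMM scaling and its 95% interval, in red where the adjusted p is under 0.05, and with total-count scaling (open diamonds). The 4 decreases lie below 0 under both, from -0.54 to -0.77 with TMM and from -0.37 to -0.60 with total counts, and the sign for Drd2 differs between the scalings.

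The size of the change differed between the knockdown libraries. On the log2 scale and relative to the control mean, Satb1 was at -2.04, -1.03 and -2.47 in replicates 1 to 3. There Slc6a3 was at -0.89, -0.40 and -0.92, Slc10a4 at -0.84, -0.50 and -1.01, and Slc18a2 at -0.78, -0.38 and -0.75. Library 2, with the highest remaining Satb1, had the smallest decrease of each. Th was at -0.72, -0.38 and -0.53 and shared that feature, whereas Ddc, at -0.37, -0.15 and -0.09, did not. Maob was at 0.40, 0.14 and 0.74. These are 3 libraries, and no relation to the level of Satb1 was tested. Without library 2 the log2 fold changes were -0.63 for Th, -0.77 for Slc18a2, -0.91 for Slc6a3 and -0.92 for Slc10a4.

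**Figure D5:**
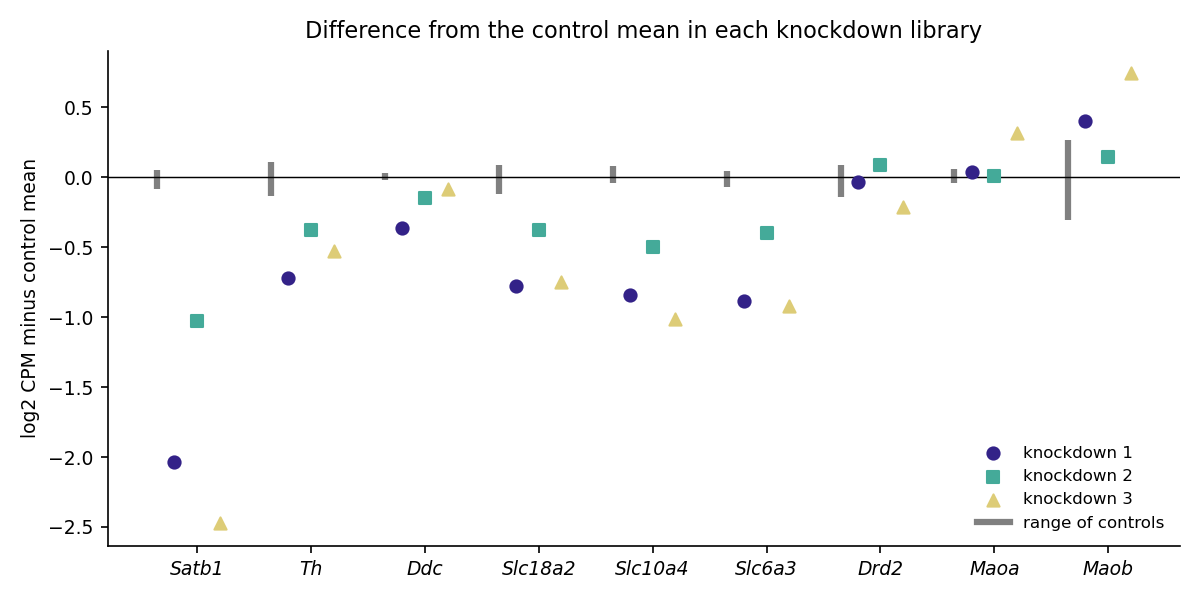
Log2 CPM minus the control mean for Satb1 and each member in knockdown libraries 1 (circles), 2 (squares) and 3 (triangles), with the range of the controls as a grey bar. Library 2 lies closest to the controls for Satb1, Th, Slc18a2, Slc10a4 and Slc6a3.

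Other genes of the pathway were taken from lists made for this comparison. Supply of cofactor and amino acids changed in both directions: of 12 genes, 3 fell and 3 rose. Over all tested genes 12.6% were called lower and 8.48% higher. Gch1, the first enzyme of tetrahydrobiopterin synthesis, the cofactor of Th, fell from 186 ± 7.77 to 96.2 ± 18.9 CPM (log2 fold change -0.95). The tetrahydrobiopterin enzyme gene Spr rose from 25.7 ± 0.620 to 39.5 ± 4.72 CPM (0.62). Slc7a5 (0.79) and Slc3a2 (0.89), which together form a transporter of large neutral amino acids such as tyrosine and L-DOPA, rose as well, Slc3a2 from 32.7 ± 3.48 to 60.8 ± 5.85 CPM.

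Of 12 vesicle genes other than the members 6 fell and 1 rose (Slc18a3, named after its values were seen). Of all tested genes 12.6% were called lower and 8.48% higher. Of genes at or above the level of Drd2 43.1% were called lower. The share of vesicle genes that fell is thus near that of abundant genes, but Syngr3 and Sv2b, with control means of 171 and 136 CPM, lie below that level. Sv2c, a vesicle protein of basal ganglia neurons, fell from 395 ± 42.7 to 208 ± 52.9 CPM (-0.93), and Syngr3 (-0.53), Sv2b (-0.38) and the proton pump subunit gene Atp6v1b2 (-0.39) fell less. The calls other than Sv2c were fragile: 1 gene was called lower with total-count scaling or without knockdown library 1, 2 without control library 2 or 3, and 3 without knockdown library 3, and none was higher without any of those 4 libraries.

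Of 10 genes for coupling of the D2 receptor 4 fell and none rose. Of all tested genes 12.6% were called lower, and of genes at or above the level of Drd2 43.1%. Not all that fell reach that level: control means were 1141 CPM for Gnao1, 410 for Gnai1, 233 for Kcnj6 and 33.0 for Arrb2, against 269 for Drd2. Total-count scaling gave 4 lower and 1 higher. Gnai1 (-0.64) and Gnao1 (-0.52), which encode inhibitory G protein alpha subunits, the arrestin gene Arrb2 (-0.69) and the potassium channel gene Kcnj6 (-0.94) fell; Kcnj6, the GIRK2 channel opened by the autoreceptor, went from 233 ± 11.3 to 122 ± 39.8 CPM. Among 4 other dopamine receptors, Drd1a, the D1 receptor gene, rose from 0.837 ± 0.133 to 2.98 ± 0.968 CPM (1.83), and the other 3 did not pass. Over all tested genes 8.48% were called higher. All 4 receptor genes had control means below 1 CPM, so this rise is at a very low level.

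Beyond monoamine oxidase, 2 of 7 breakdown genes fell and 1 rose. For this list and those that follow, the shares over all tested genes were 12.6% lower and 8.48% higher. Aldh1a1, an aldehyde dehydrogenase that clears the product of monoamine oxidase, fell from 5839 ± 741 to 3376 ± 530 CPM (-0.79), and the aldehyde reductase gene Akr1a1 fell by 0.41 on the log2 scale. Akr1b3 rose (0.38), a call lost without control library 1 or 2, and Akr1a1 lost its call with total-count scaling (adjusted p = 0.0518, edgeR). Of 9 partners and regulators of the dopamine transporter 3 fell, among them Pick1 (-0.51) and Prkcb (-0.35). Prkcb lost its call without control library 2 or 3 or knockdown library 1 or 2, and with total-count scaling (adjusted p = 0.187, edgeR). Pick1 shares 18.6% of its exon bases with an overlapping gene and is uncertain. With total-count scaling 1 was lower and 1 higher, and 1 was higher without knockdown library 3. Of 10 transcription factor genes of these neurons Pitx3 (-0.71) and En1 (-0.39) fell, the latter not without control library 3, and with total-count scaling 1 was lower and 1 higher. For the lists the median log2 fold change was 0.08 for supply, -0.29 for vesicles, -0.22 for D2 coupling, 0.02 for breakdown, -0.13 for transporter partners and -0.13 for transcription factors, against 0.01 over all genes; total-count scaling turned the last 2 to 0.04.

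Other monoamine neurons were checked because they share Ddc, Slc18a2 and the oxidases. None of 5 markers of serotonergic and noradrenergic neurons passed the edgeR test, 0 had an unadjusted p under 0.05, and DESeq2 and limma-voom called 0; without control library 2, 1 was higher. Their summed level was 29.4 to 54.3 CPM in the controls and 22.1 to 46.1 CPM in the knockdown. Tph2, the serotonin enzyme, was at 26.2 and 24.2 CPM on average, and Dbh, which turns dopamine into noradrenaline, at 0.487 and 0.930 CPM. Of 6 other uptake transporters 5 were tested and none passed in edgeR, DESeq2 or limma-voom (1, Slc29a4, at an unadjusted p under 0.05; 1 called higher without control library 2 or 3, as under total-count scaling), with Slc29a4 at 9.37 and 11.9 CPM and Slc22a2 at 0.0224 and 0.172 CPM.

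Markers of other cells moved between the groups beside the members, where 12.6% of all tested genes were called lower and 8.48% higher. Of 10 oligodendrocyte markers 8 rose and none fell, among them Mbp (0.62), Mog (0.87) and Cnp (0.58), and their summed level was 390.0 to 457 CPM in the controls and 612 to 694 CPM in the knockdown. Without control library 1 or knockdown library 1 the count was 5. Of 8 astrocyte markers S100b (0.69) and Aqp4 (0.63) rose and Slc1a2 (-0.47) fell; none rose without control library 3 or knockdown library 1, 1 without control library 1 or knockdown library 3, and 4 with total-count scaling. The summed astrocyte level was 260 to 306 CPM in the controls and 239 to 245 CPM in the knockdown, most of it Slc1a2. Of 9 microglia markers Csf1r (1.45) rose and P2ry12 (-0.45) fell, while total-count scaling called 0 lower and 3 higher. Csf1r shares 15.1% of its exon bases with Hmgxb3. With single libraries left out, Csf1r stayed called without control 3 or knockdown 2 and P2ry12 without knockdown 2, where 4 markers were higher; DESeq2 also called 4 higher. The microglia sums were 23.8 to 25.3 CPM in the controls and 22.6 to 29.8 CPM in the knockdown. P2ry12, which fell, made up a large part of them, at 18.9 and 13.8 CPM on average. GABAergic and glutamatergic markers, 5 genes with sums of 222 to 272 and 238 to 350 CPM, and 7 vessel markers, with sums of 3.46 to 5.52 and 3.66 to 6.79 CPM, had no called gene in edgeR, DESeq2 or limma-voom and 0 at an unadjusted p under 0.05; 1 of the former was higher with total-count scaling. No marker of these lists was at 0 in every library. The median log2 fold change was 0.60 for oligodendrocyte, 0.57 for astrocyte and 1.08 for microglia markers, against 0.01 over all genes. It was 0.17 for GABAergic and glutamatergic markers and 0.59 for vessel markers. With a filter at a mean of 1 CPM only 2 vessel markers were left, with a median of -0.48. The sums can thus differ in direction from the medians, since single abundant markers weigh most in a sum. The part of other cells in the changes of Th, Slc18a2, Slc10a4, Slc6a3 or Maob was not tested.

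Genes with the most similar pattern were found by the root mean square distance, over the 6 libraries, between log2 CPM values less their control mean, among 8705 protein-coding genes at 10 CPM or more. Nearest to Th were Dctn2, a dynactin subunit gene (distance 0.02 on the log2 scale), Tuba1c, Hspa12a, Ndufa9 and Plcxd3 (0.04). Nearest to Slc6a3 were Fbll1, Elavl3, Mlst8, Actr1b and Ldb1, at distances of 0.04 to 0.06, with Slc10a4 at rank 9 and Slc18a2 at rank 21. Nearest to Slc18a2 were Gpr158 (0.03), the synaptic vesicle gene Syp (0.04), Enpp5, Epo and the nicotinic receptor gene Chrnb3 (0.06), with Slc6a3 at rank 46 and Th at rank 78. In the order for Slc18a2, Slc10a4 ranked 285, Ddc 2771, Drd2 4340, Maoa 6356 and Maob 8106. Nearest to Drd2 were Adap1, Mis12, Bai2, Ddx27 and Filip1l. Among these, Mlst8, Syp and Epo share over 10% of their exon bases with another annotated gene and are uncertain.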

How the data were processed

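Gene-level read counts, whole numbers with no scaling, were deposited by the authors as a single table with a column for each library. TopHat2 2.0.8 and the build mm10 are named per the submitters' processing notes, while the counting tool and strand setting were not given in the sources used here. Columns were matched to samples by title. The members and gene lists were chosen with earlier results of these data known, and the abundance class and the transcript length were chosen after values were seen.

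Of 23079 genes, those kept by the filter were tested in edgeR 4.0.16 (R 4.3.3; quasi-likelihood F-test) with TMM scaling, filterByExpr (minimum count 10, minimum total 15) and Benjamini-Hochberg adjustment over 16766 genes at 0.05, 2-sided. Standard errors and 95% intervals come from the F statistic. The script was tested on simulated data. Ratios were compared by exact permutation (scipy 1.17.1). Positions and promoters are from RefSeq (GRCm38.p6, the coordinates of mm10), exon overlaps and the lengths of RefSeq-matched transcripts from GENCODE; Maob had no window. All 127 listed symbols were found.

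Named genes were Satb1, the members, up to 4 called genes of each list with the smallest p (or 2 if none was called), and the 5 nearest patterns of 4 members. Values of 2 genes that this rule names are not reported here. Alternatives were other scalings, filters, a robust fit, DESeq2 1.42.0, limma-voom (limma 3.58.1), the replicate number as a block, and each library left out.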

Additional observations from a re-analysis of the deposited data

How the results depend on the processing

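The decreases of Th, Slc18a2, Slc10a4 and Slc6a3 kept their direction and passed the test in all 14 alternatives. Their log2 fold changes ranged from -0.63 to -0.37 for Th, from -0.77 to -0.46 for Slc18a2, from -0.92 to -0.60 for Slc10a4 and from -0.91 to -0.55 for Slc6a3. Drd2 and Maoa passed in none, with ranges of -0.13 to 0.11 and 0.04 to 0.29; Drd2 was above 0 with total-count scaling (0.11) and without knockdown library 3 (0.04). Maob passed with total-count scaling (0.60), a filter at a mean of 1 CPM (0.48), the replicate block (0.43) and without knockdown library 2 (0.56), and leaving out single libraries gave 0.27 to 0.57. In those 4 settings 1 member was higher, and leaving out single libraries gave 0 to 1. Over the whole table, total-count scaling called 972 lower and 2770 higher genes against 2115 and 1421, and leaving out single libraries gave 1132 to 2054 lower and 804 to 1356 higher, fewest without knockdown library 1 and next without control library 2 (1322 and 910). Same-numbered libraries deviated together with r of 0.19, 0.03 and 0.25 over 13581 genes. Control 3 with knockdown 1 gave -0.22, and control 1 with knockdown 3 gave -0.20. Whether the numbers pair the libraries is not settled by these values. The labels state no pairing, and the main fit took none. With the replicate block 2789 genes were lower and 1924 higher, and Ddc passed at -0.20 (adjusted p = 0.0174, range over alternatives 0.0174 to 0.813). Not every library correlated best with its own number. The causes of these shifts were not tested. The ratios kept their direction without each library in turn.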
